A study of Mus musculus with 16 samples.

Results

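The Kruppel-like factors were followed in RAW264.7 cells, a mouse macrophage-like cell line. The members were Klf2, Klf3, Klf4, Klf6, Klf7, Klf9, Klf10, Klf11, Klf13 and Klf16, and every non-control probe on the array that carried 1 of these names was used. These were 10 genes among the 34779 gene names on the array, covered by 12 probes. The cells were kept in medium with 0.5% serum and then received either cordycepin, a nucleoside analogue, at 20 µM or its solvent DMSO. The DMSO and cordycepin groups stayed in that medium for 120 minutes without a further stimulus. The LPS+DMSO and LPS+cordycepin groups had 60 minutes of the same pre-treatment, and lipopolysaccharide (LPS), a bacterial cell wall component that activates macrophages, was then present at 1 µg/ml for 60 minutes. Each of the 4 conditions had 4 replicates, so there were 16 arrays. A replicate number stood for a day of culture, and all cells came from this single transformed line, which limits the results to it.

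Kruppel-like factors are transcription factors with zinc fingers at their C-terminal end, which bind GC-rich DNA and CACCC elements, the same kind of site that Sp factors bind. Outside the zinc fingers the proteins differ. Klf2, Klf4, Klf6 and Klf7 are known mainly as activators that recruit acetylases such as p300, Klf3 recruits the corepressor CtBP, and Klf9, Klf10, Klf11, Klf13 and Klf16 recruit the corepressor Sin3A. In macrophages and endothelium, Klf2 is known as a brake on inflammatory gene expression, Klf4 as a factor of monocyte differentiation and alternative activation, and Klf6 as a promoter of inflammatory gene expression. Several members are immediate early genes with short-lived mRNAs.

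Between 21999 and 30362 of 59305 spots per array were well above background, and the number was higher on the second slide, which held replicates 3 and 4, than on the first. The array of DMSO replicate 2 stood apart. It was the outlying DMSO array for 5.3% of genes, against 0.392% to 2.53% for every other array within its own group, and it shifted several of the members, so values without it are given beside the results of members that it moved most. As a check of the labels, Tnf, an LPS-induced cytokine gene, was 6.71 ± 0.12 (log2 change ± SE, adjusted p = 1.13e-14 by limma) higher with LPS. All 9 macrophage markers examined were well above background on all 16 arrays. Of 13 markers of other cell types, 1 (Cd3e) was well above background on all 16 arrays, 6 were on some and 6 on none. Among these 13, Cd79a was 2.64 ± 0.31 (log2, adjusted p = 1.27e-05 by limma) higher in LPS+cordycepin than in LPS+DMSO, but it entered the test only through LPS+cordycepin, the group where it was high (well above background on 2 DMSO, 3 cordycepin, 3 LPS+DMSO and 4 LPS+cordycepin arrays). Its part in the results was not tested.

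The promoters of the 5 members whose mRNA changed are shown so that their letters can be read beside the changes given below. RefSeq (GRCm38.p6) gave a promoter for 8 of the 10 members. Each run covers 250 bases before and 50 bases after the start of the gene, 5′ to 3′ along the gene, and capitals mark KLF sites (CACCC) and GC boxes (GGGCGG) on either strand, which may overlap.
Klf2 (chr8:72318812-72319111, plus strand): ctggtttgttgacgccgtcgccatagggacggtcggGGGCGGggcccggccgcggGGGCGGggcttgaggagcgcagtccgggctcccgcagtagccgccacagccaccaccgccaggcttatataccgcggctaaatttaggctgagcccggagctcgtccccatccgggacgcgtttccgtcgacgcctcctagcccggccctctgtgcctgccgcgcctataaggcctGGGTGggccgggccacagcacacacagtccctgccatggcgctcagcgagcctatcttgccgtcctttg
Klf4 (chr4:55532426-55532725, minus strand): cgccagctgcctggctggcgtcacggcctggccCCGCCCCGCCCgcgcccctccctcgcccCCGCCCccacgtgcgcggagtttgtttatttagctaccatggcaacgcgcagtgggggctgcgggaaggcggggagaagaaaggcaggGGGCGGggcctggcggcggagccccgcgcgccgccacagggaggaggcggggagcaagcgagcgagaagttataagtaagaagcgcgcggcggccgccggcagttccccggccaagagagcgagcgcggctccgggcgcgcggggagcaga
Klf6 (chr13:5861239-5861538, plus strand): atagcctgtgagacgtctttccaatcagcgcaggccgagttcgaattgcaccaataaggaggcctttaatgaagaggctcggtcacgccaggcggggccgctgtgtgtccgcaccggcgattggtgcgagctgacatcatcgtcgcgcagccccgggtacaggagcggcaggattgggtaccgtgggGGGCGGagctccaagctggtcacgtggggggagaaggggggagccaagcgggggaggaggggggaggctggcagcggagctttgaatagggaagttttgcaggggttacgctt
Klf7 (chr1:64121340-64121639, minus strand): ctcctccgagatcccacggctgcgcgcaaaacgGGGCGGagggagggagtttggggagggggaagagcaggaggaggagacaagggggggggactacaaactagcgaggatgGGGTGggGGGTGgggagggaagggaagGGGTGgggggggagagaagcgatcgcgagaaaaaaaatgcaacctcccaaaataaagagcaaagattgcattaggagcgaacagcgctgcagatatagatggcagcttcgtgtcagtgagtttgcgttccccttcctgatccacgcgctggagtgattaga
Klf9 (chr19:23140976-23141275, plus strand): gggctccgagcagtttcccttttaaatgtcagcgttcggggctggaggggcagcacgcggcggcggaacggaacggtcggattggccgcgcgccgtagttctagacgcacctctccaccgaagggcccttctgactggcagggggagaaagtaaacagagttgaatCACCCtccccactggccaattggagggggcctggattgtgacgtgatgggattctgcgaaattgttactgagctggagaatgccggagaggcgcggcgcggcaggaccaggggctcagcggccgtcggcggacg

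Over the 8 promoters, 7 held a GC box, against 35.7% of 32851 RefSeq promoters of the same length searched on both strands, and 5 (Klf2, Klf3, Klf4, Klf9 and Klf13) held a CRE half-site (TGACG), against 20.8%. The holders of a CRE half-site include members that fell and members that did not pass the test in any comparison. These promoters were also GC-rich, with 69.3% G and C in Klf2, 74.3% in Klf4, 63.0% in Klf6, 58.3% in Klf7 and 63.3% in Klf9, against a median of 52.7% over all promoters. A KLF site was present in 5 of 8, against 57.5% of all promoters, and neither Klf4 nor Klf6 held any. The Klf2 promoter held a MEF2 motif at position -118, counted from the start of the gene, a motif in 3.2% of promoters. The Klf9 promoter held the letters TGAATCA at position -89. They matched the pattern searched for AP-1, TGANTCA, which allows any middle base and was in 7.8% of promoters. They are therefore not named an AP-1 site here. CCAAT boxes were present in 4 of 8 promoters, 4 of them in Klf6 and 3 in Klf9, against 37.4% of all promoters. NF-kB, CArG and TATAAA motifs were in 0 of the 8 windows, against 8.5%, 1.6% and 13.6% of all promoters. A match is a description of letters in this window and not a measured binding site. The files place the 60-base array probes on mm9, another build, at chr8:74845137-74845196 for Klf2, chr4:55540167-55540226 for Klf4, chr13:5869371-5869430 for Klf6, chr1:64082265-64082324 for Klf7 and chr19:23240410-23240469 for Klf9.

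Klf11 is a repressor related to Klf10. Its probe was well above background on 0 of 16 arrays (log2 signal 2.49 to 4.41), so its mRNA was not detectable and was not tested. The other 9 members were well above background on all 16 arrays, and so passed the filter in every condition. A gene is said to have risen or fallen where the adjusted p of limma, fitted to 15877 genes, was under 0.05, and is said to have been called where it also differed at least 2-fold. Adjusted p values below are from this fit.

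LPS raised Klf6 and Klf7 and lowered Klf9 in cells without cordycepin. Of the 9 members tested, 1 was called higher and 0 lower, against 2.09% and 2.49% of all genes. Without the fold minimum, 2 rose and 1 fell, against 5.11% and 9.74% of all genes. For 4 members (Klf3, Klf6, Klf7 and Klf9) the arrays of LPS+DMSO and DMSO did not overlap, against 18.9% of all genes. In cells with cordycepin, LPS raised the same pair, Klf6 and Klf7. The arrays did not overlap for 5 members (Klf2, Klf6, Klf7, Klf9 and Klf10), against 15% of all genes. There 1 member was called higher and 0 lower, against 1.71% and 1.19% of all genes, and 2 rose and 0 fell, against 3.62% and 4.38%. The median log2 change of the 9 members was -0.23 without cordycepin and -0.03 with it, against -0.04 for all genes in both comparisons.

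Cordycepin alone lowered Klf2 and Klf4. Of the 9 members, 0 were called higher and 1 (Klf2) lower, against 4.47% and 1.07% of all genes, and 0 rose and 2 fell, against 8.07% and 7.73%. These 2 were also the members whose arrays did not overlap, against 21.1% of all genes. With LPS present, cordycepin lowered Klf6 and Klf7. In that comparison 0 members were called higher and 0 lower, against 5.94% and 1.52% of all genes, although 4 had an unadjusted p under 0.05 (0 of them at least 2-fold), and 0 rose and 2 fell, against 10.8% and 8.36%. The arrays did not overlap for 3 members (Klf2, Klf6 and Klf7), against 23% of all genes. The median log2 change was -0.17 with cordycepin alone and -0.23 with cordycepin in LPS, against 0.03 and 0.04 for all genes. The comparisons share control arrays and so are not independent of each other.

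**Figure D1:**
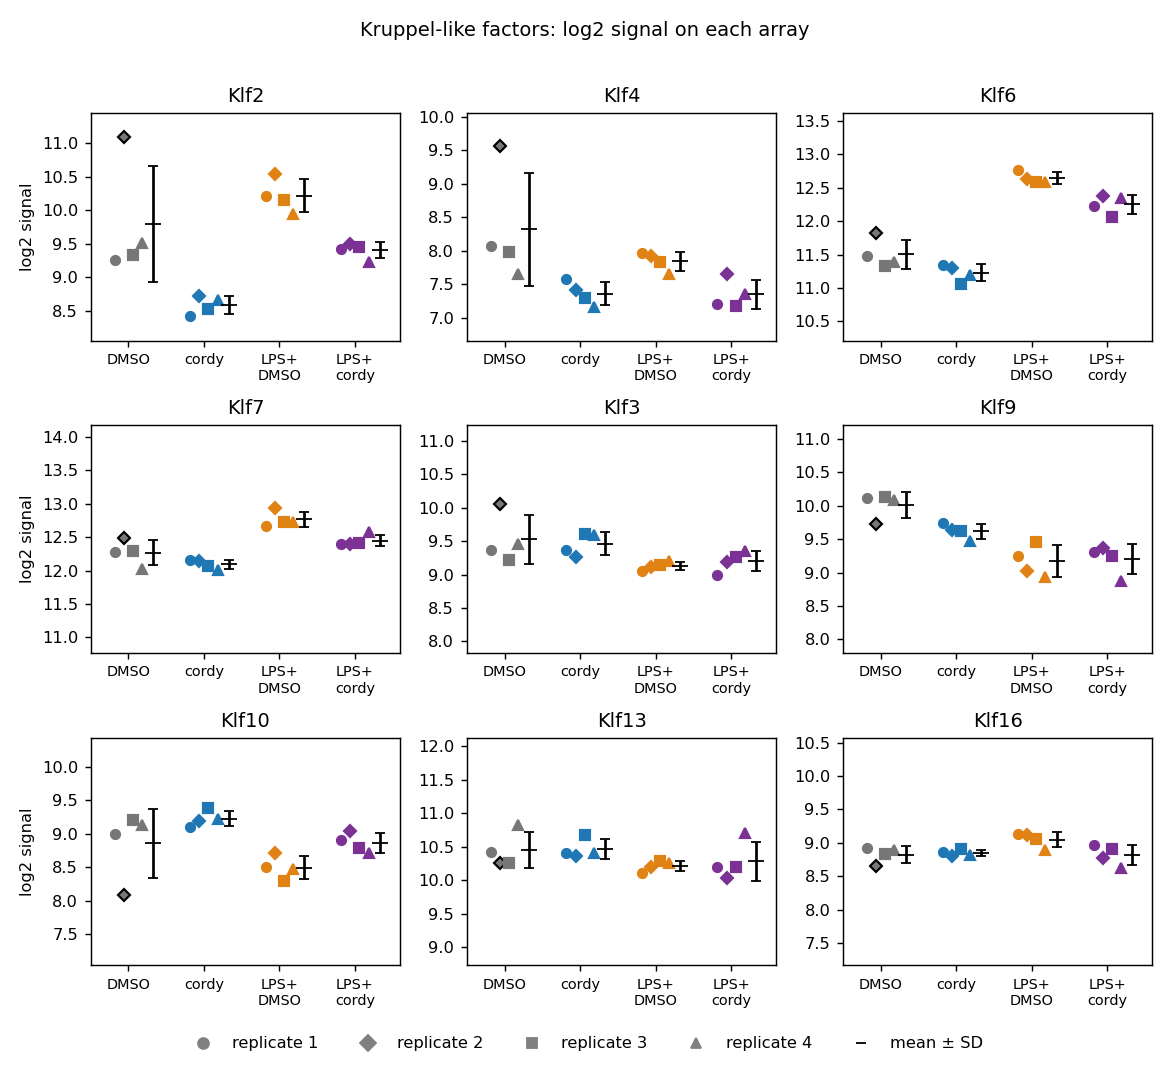
Log2 signal of the 9 members above background on each of the 16 arrays, with 1 panel per gene, marker shape for the replicate number, and the mean ± SD of 4 arrays beside each group. The black-edged diamond is DMSO replicate 2, which lies at 11.09 for Klf2 and 9.56 for Klf4, far above the other DMSO arrays, and at 8.09 for Klf10, below them. Every panel spans the same log2 range.

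Klf6, an activator induced early by many stimuli, gave the clearest response to LPS. In DMSO its log2 signal was 11.48, 11.82, 11.33 and 11.39 in replicates 1 to 4, and in LPS+DMSO it was 12.77, 12.63, 12.59 and 12.59. In cordycepin it was 11.35, 11.30, 11.06 and 11.20, and in LPS+cordycepin 12.23, 12.37, 12.06 and 12.34. Every LPS array was above every array without LPS, whether or not cordycepin was present. Klf6 rose by 1.14 ± 0.11 (log2 change ± SE, 2.21-fold, adjusted p = 3.55e-06) in LPS+DMSO and by 1.02 ± 0.11 (2.03-fold, adjusted p = 1.78e-05) in LPS+cordycepin. On each of the 4 culture days the difference was positive, from 0.81 to 1.29 without cordycepin and from 0.88 to 1.15 with it. The rise with cordycepin lay at the fold minimum and dropped under it (0.97 to 0.99) in 4 of 20 fits that left out arrays, while its adjusted p remained under 0.05 in all 20.

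In the presence of LPS, Klf6 was lower with cordycepin. It fell by 0.39 ± 0.11 on the log2 scale (adjusted p = 0.0215), and the LPS+cordycepin arrays (12.06 to 12.37) lay below the LPS+DMSO arrays (12.59 to 12.77). Without LPS the difference was -0.28 ± 0.11 (adjusted p = 0.122), or -0.17 ± 0.10 (adjusted p = 0.292) without DMSO replicate 2, and the groups overlapped. The LPS change with cordycepin minus that without it was -0.12 ± 0.16 (adjusted p = 0.955), so a different size of the Klf6 response was not shown. When each array or each culture day was left out in turn, the fall in LPS passed the test in 15 of 20 fits, with values from -0.44 to -0.33.

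Klf7, an activator best known from neurons and fat cells, moved in the same directions as Klf6 and less. Its log2 signal was 12.27, 12.49, 12.29 and 12.02 in DMSO and 12.67, 12.93, 12.73 and 12.72 in LPS+DMSO. With cordycepin it was 12.16, 12.14, 12.06 and 12.01 without LPS and 12.40, 12.40, 12.41 and 12.57 with LPS. The groups with and without LPS did not overlap in either pair. Klf7 rose by 0.50 ± 0.10 (log2, 1.41-fold, adjusted p = 0.0023) in LPS+DMSO and by 0.35 ± 0.10 (1.28-fold, adjusted p = 0.0378) in LPS+cordycepin. Against LPS+DMSO it fell by 0.32 ± 0.10 (adjusted p = 0.0319) in LPS+cordycepin. The rise with cordycepin passed the test in 7 and the fall in 12 of 20 fits that left out arrays, and with normexp background correction the adjusted p was 0.0892 and 0.0749. Neither passed in the authors' table of log2 values, and the rise did not pass with scaling to the 75th percentile over all probes. Cordycepin alone gave -0.17 ± 0.10 (adjusted p = 0.277), or -0.10 ± 0.09 (adjusted p = 0.549) without DMSO replicate 2.

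Klf2, known to restrain inflammatory activation, was lower with cordycepin. Its log2 signal in DMSO was 9.26, 11.09, 9.33 and 9.51, and in cordycepin 8.42, 8.72, 8.53 and 8.66. All cordycepin arrays lay below all DMSO arrays, and replicate 2 of DMSO lay 1.72 above the mean of the other 3. Klf2 fell by 1.22 ± 0.30 on the log2 scale (2.32-fold, adjusted p = 0.00945). Without DMSO replicate 2 the change was -0.79 ± 0.13 (1.73-fold, adjusted p = 0.000485), which no longer met the fold minimum. By culture day the differences were -0.84, -2.37, -0.80 and -0.85, so that day 2 alone was past 2-fold. Within the first slide the change was -1.60 (adjusted p = 0.137) and within the second -0.83 (adjusted p = 0.00869).

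With LPS, the log2 signal of Klf2 was 10.22, 10.54, 10.16 and 9.95 in LPS+DMSO and 9.43, 9.50, 9.45 and 9.23 in LPS+cordycepin. The LPS+cordycepin arrays again lay below all LPS+DMSO arrays, and above all cordycepin arrays without LPS. The cordycepin difference in LPS was -0.81 ± 0.30 (adjusted p = 0.0723), and fitted with the replicate number as a block it passed the test (adjusted p = 0.0319). Without DMSO replicate 2, which belongs to neither group but enters the shared estimate of spread, it was -0.81 ± 0.12 (adjusted p = 0.00012). The LPS difference of Klf2 depended on the same array. It was 0.42 ± 0.30 (adjusted p = 0.433) in LPS+DMSO against DMSO, and without DMSO replicate 2 it was 0.85 ± 0.13 (adjusted p = 0.000308). In LPS+cordycepin against cordycepin it was 0.82 ± 0.30 (adjusted p = 0.125), and 0.82 ± 0.12 (adjusted p = 0.000292) without that array. Klf2 was thus higher with LPS on 3 of 4 days without cordycepin, the exception being day 2 (-0.55), and on 4 of 4 days with it. The difference between these LPS changes was 0.40 ± 0.42 (adjusted p = 0.941) on all arrays and -0.03 ± 0.17 (adjusted p = 0.981) without DMSO replicate 2.

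**Figure D2:**
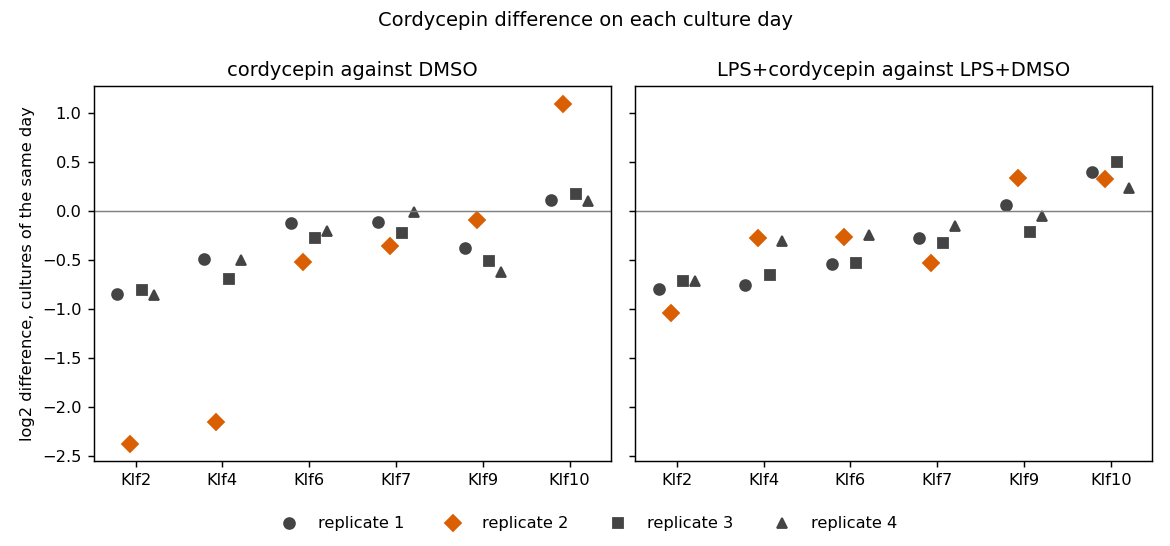
Log2 difference between the cordycepin-treated and the DMSO-treated culture of the same day, without LPS (left) and with LPS (right), for 6 members. Orange diamonds are replicate 2. Without LPS, the replicate 2 values of Klf2 (-2.37), Klf4 (-2.15) and Klf10 (1.1) lie far from the other 3 days, and Klf2 and Klf4 are below 0 on every day in both panels.

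Klf4, a factor of monocyte differentiation, was also lower with cordycepin. Its log2 signal in DMSO was 8.07, 9.56, 7.99 and 7.66, and in cordycepin 7.58, 7.41, 7.30 and 7.16. The groups did not overlap, but the lowest DMSO array (7.66) lay just above the highest cordycepin array (7.58). Klf4 fell by 0.96 ± 0.29 on the log2 scale (1.94-fold, adjusted p = 0.0355), and by 0.55 ± 0.14 (1.46-fold, adjusted p = 0.0152) without DMSO replicate 2, which lay 1.65 above the mean of the other 3 DMSO arrays. With normexp background correction the change was -0.73 (adjusted p = 0.107), and the test was passed in 14 of 20 fits that left out arrays.

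In LPS+DMSO the log2 signal of Klf4 was 7.97, 7.92, 7.83 and 7.65, and in LPS+cordycepin 7.21, 7.66, 7.18 and 7.35. The highest LPS+cordycepin array lay just above the lowest LPS+DMSO array, so that these groups overlapped. The difference was -0.49 ± 0.29 (adjusted p = 0.312) on all arrays and -0.49 ± 0.13 (adjusted p = 0.0138) without DMSO replicate 2, and it was negative on 4 of 4 days. LPS itself gave -0.48 ± 0.29 (adjusted p = 0.341) without cordycepin, which became -0.07 ± 0.14 (adjusted p = 0.845) without DMSO replicate 2, and -0.01 ± 0.29 (adjusted p = 0.994) with cordycepin. Klf2 and Klf4 were thus lower with cordycepin on every culture day, with and without LPS. In the main fit, on all arrays without a block, both passed the test in the absence of LPS and neither in its presence.

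Klf3, the CtBP-recruiting member, did not pass the test in any comparison. Its log2 signal was 9.36, 10.06, 9.22 and 9.46 in DMSO and 9.05, 9.11, 9.14 and 9.20 in LPS+DMSO. These arrays did not overlap, by a narrow gap, and the difference was -0.40 ± 0.15 (adjusted p = 0.0951). It was -0.22 ± 0.11 (adjusted p = 0.207) without DMSO replicate 2. The cordycepin arrays ranged from 9.26 to 9.61 and the LPS+cordycepin arrays from 9.0 to 9.35. The change with LPS in these cells was -0.26 ± 0.15 (adjusted p = 0.442), and cordycepin gave -0.07 ± 0.15 without LPS and 0.08 ± 0.15 with it. The former turned to 0.11 ± 0.11 (adjusted p = 0.567) without DMSO replicate 2.

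Klf9, a Sin3A-recruiting repressor known as a glucocorticoid-responsive gene, fell with LPS. Its log2 signal was 10.11, 9.72, 10.13 and 10.09 in DMSO, and 9.25, 9.03, 9.46 and 8.93 in LPS+DMSO. With cordycepin it was 9.74, 9.64, 9.62 and 9.47 without LPS and 9.31, 9.37, 9.25 and 8.87 with LPS. All LPS arrays lay below all arrays without LPS, although the highest LPS+DMSO array (9.46) nearly met the lowest cordycepin array (9.47). Klf9 fell by 0.85 ± 0.14 on the log2 scale (1.80-fold, adjusted p = 0.000473) in LPS+DMSO, on 4 of 4 days, and by 0.94 ± 0.14 (adjusted p = 0.000222) without DMSO replicate 2. In LPS+cordycepin the LPS difference was -0.42 ± 0.14 (adjusted p = 0.0896), and with the replicate number as a block it passed the test (adjusted p = 0.0464).

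Cordycepin alone gave a Klf9 difference of -0.40 ± 0.14 (adjusted p = 0.0686), which passed the test with the replicate block (adjusted p = 0.0371) and without DMSO replicate 2 (-0.49 ± 0.14, adjusted p = 0.0224). In LPS, the 2 groups had nearly the same level, with a difference of 0.03 ± 0.14 (adjusted p = 0.922). Of all members, only Klf9 had an unadjusted p under 0.05 for the difference between the LPS changes. The LPS change with cordycepin minus that without it was 0.43 ± 0.20 on the log2 scale, above 0 on 4 of 4 days (0.30 to 0.56), and the adjusted p was 0.63. Of all genes, 0.359% were called and 0.548% passed the test for this difference, and 0 of 9 members did.

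Klf10, an early gene of the TGF-beta pathway, had LPS and cordycepin differences of opposite sign, and none passed the test on all 16 arrays. Its log2 signal was 9.0, 8.09, 9.21 and 9.13 in DMSO and 8.51, 8.72, 8.29 and 8.47 in LPS+DMSO. With cordycepin it was 9.11, 9.19, 9.39 and 9.23 without LPS and 8.91, 9.05, 8.79 and 8.71 with LPS. DMSO replicate 2 lay 1.02 below the mean of the other 3, beneath every LPS+DMSO array, and the other 3 DMSO arrays lay above them all. On all 16 arrays the LPS difference was -0.36 ± 0.19 (adjusted p = 0.265) without and -0.37 ± 0.19 (adjusted p = 0.358) with cordycepin. Without DMSO replicate 2 these were -0.61 ± 0.11 (adjusted p = 0.00154) and -0.37 ± 0.10 (adjusted p = 0.0369), and Klf10 passed the test in both. In LPS, the cordycepin difference was 0.37 ± 0.19 (adjusted p = 0.239) on all arrays, and 0.37 ± 0.10 (adjusted p = 0.0196) without that array. Without LPS it was 0.38 ± 0.19 (adjusted p = 0.224), and 0.12 ± 0.11 (adjusted p = 0.548) without that array.

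Klf13, a regulator of the chemokine gene Ccl5 in T cells, had 3 probes. The probe for the RefSeq transcript NM_021366 (chr7:71082854-71082913, mm9, minus strand) was the brightest and stood for the gene. Its log2 signal was 10.44 ± 0.27 (mean ± SD, n = 4) in DMSO and 10.21 ± 0.07 in LPS+DMSO, and with cordycepin it was 10.46 ± 0.15 without and 10.28 ± 0.29 with LPS. The LPS+DMSO arrays (10.11 to 10.28) overlapped with the DMSO arrays (10.26 to 10.83), and the gene did not pass the test in any comparison, with changes from -0.23 to 0.07. A probe for BC030682 (chr7:71032482-71032541) has coordinates on the plus strand, opposite to Klf13, so whether it measured Klf13 is uncertain. Its LPS difference was -0.45 ± 0.22 (adjusted p = 0.227 over all probes tested) without cordycepin, of the same sign as that of the first probe. A probe for AK002926, whose coordinates span 32932 bases although it is 60 bases long, was well above background on 6 of 16 arrays and was not tested.

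Klf16, a repressor related to Klf13, did not pass the test in any comparison of the main fit. Its log2 signal ranged from 8.65 to 8.93 in DMSO and 8.81 to 8.91 in cordycepin, and from 8.89 to 9.13 in LPS+DMSO and 8.62 to 8.97 in LPS+cordycepin. All of these ranges overlapped. The LPS difference was 0.22 ± 0.09 (adjusted p = 0.137), and cordycepin in LPS gave -0.23 ± 0.09 (adjusted p = 0.115), negative on 4 of 4 days. With quantile normalization the latter was -0.33 ± 0.11 and passed the test (adjusted p = 0.0468). It also passed with scaling to the 75th percentile over all probes.

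**Figure D3:**
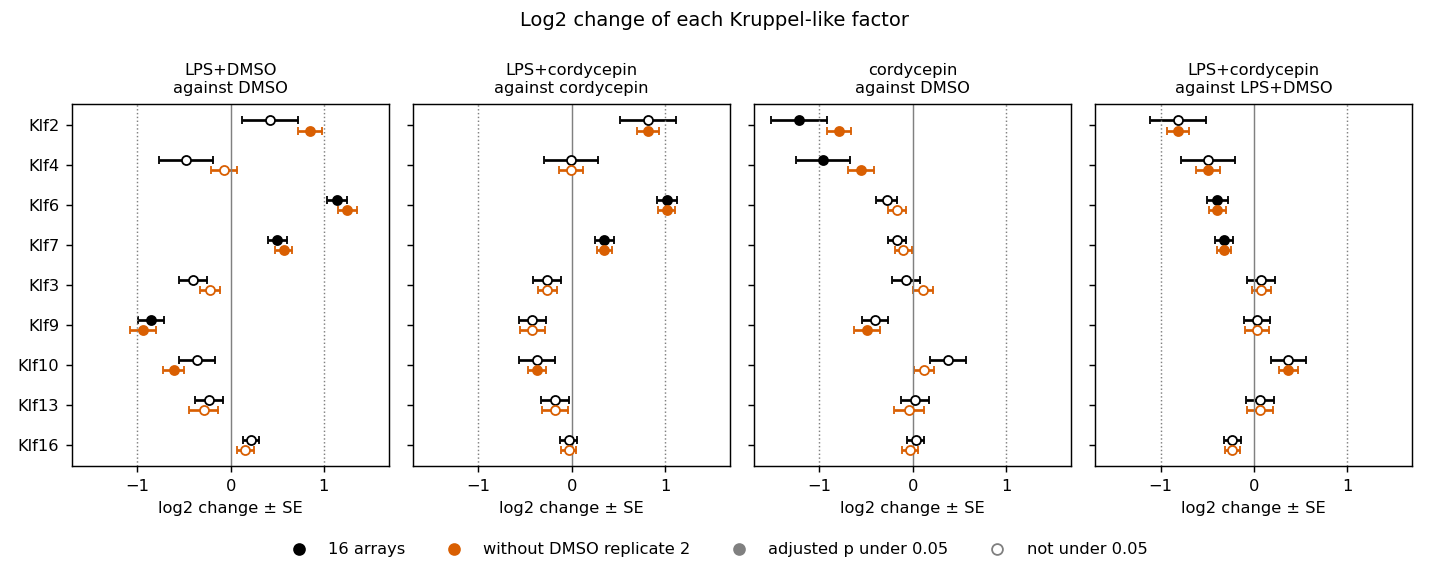
Log2 change ± SE of each member in 4 comparisons, fitted on 16 arrays (black) and without DMSO replicate 2 (orange). Filled points have an adjusted p under 0.05 and dotted lines mark a 2-fold change. Klf2 under cordycepin moves from -1.22 to -0.79, and more members are filled in orange than in black in each panel.

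The number of members that passed the test was thus set in part by DMSO replicate 2. Without it, 3 rose (Klf2, Klf6 and Klf7) and 2 fell (Klf9 and Klf10) with LPS, against 5.4% and 10.2% of all genes in the same 15 arrays. With LPS in cordycepin-treated cells, 3 rose (the same genes) and 1 fell (Klf10), against 4.41% and 5.47%. With cordycepin alone, 0 rose and 3 fell (Klf2, Klf4 and Klf9), against 8.07% and 7.85%. With cordycepin in LPS, 1 rose (Klf10) and 4 fell (Klf2, Klf4, Klf6 and Klf7), against 12.1% and 9.72%. In that comparison the other Sin3A-recruiting members tested did not pass, with Klf9 at 0.03, Klf13 at 0.07 and Klf16 at -0.23. For the difference between the LPS changes, 0 members passed, against 0.687% of all genes. This choice of arrays was made after the data were seen. A lower signal in RNA from a whole well cannot tell fewer expressing cells from less mRNA per cell.

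**Figure D4:**
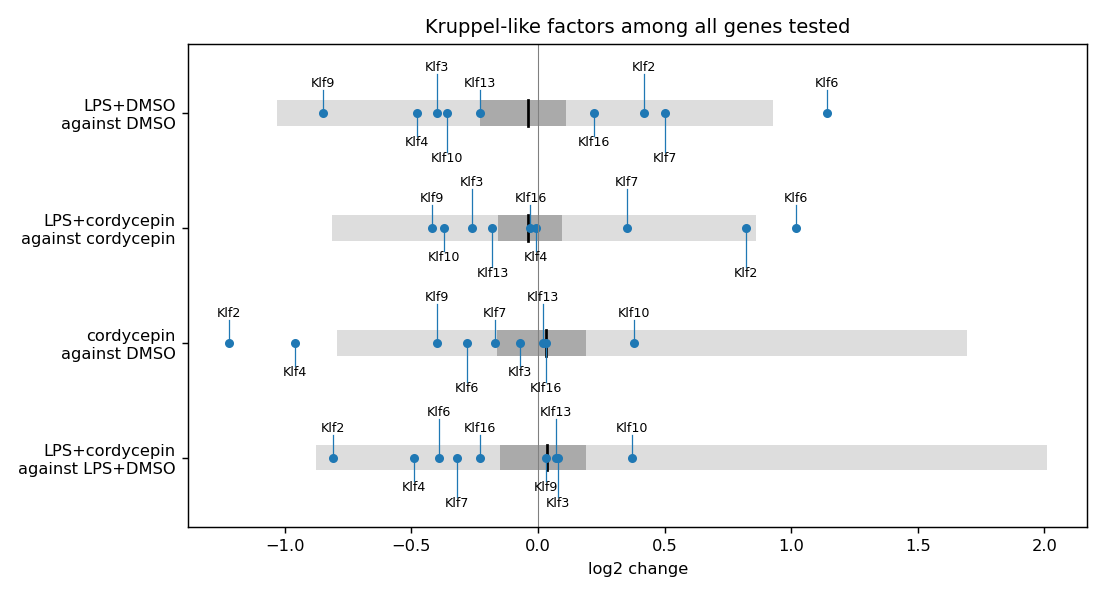
Log2 changes of the 9 members (points) on the distribution over all 15877 genes tested in each comparison. The black line is the median, the dark bar spans the 25th to 75th percentile and the light bar the 2.5th to 97.5th. Klf6 lies past the light bar in both LPS comparisons. Klf2 and Klf4 lie past its lower end under cordycepin alone on these 16 arrays. Without DMSO replicate 2 their changes were -0.79 and -0.55, and the bars were not computed without that array.

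The rest of the family was little expressed. Of 7 other Kruppel-like factors on the array, Klf8 alone passed the filter, at 6.63 ± 0.22 (mean log2 signal ± SD, n = 4) in DMSO, and it passed the test in 0 of the comparisons. Klf5 and Klf12 were well above background on no array. Among 9 Sp factors, which bind the same GC boxes, Sp1, Sp2, Sp3 and Sp4 were tested and 0 passed the test in any comparison, with log2 changes from -0.29 to 0.29. The 12 corepressors, coactivators and deacetylases were all tested, and 0 rose or fell with LPS, against 5.11% and 9.74% of all genes. With cordycepin 0 of 12 rose, against 8.07% of all genes without LPS and 10.8% with it, and 1 fell, against 7.73% and 8.36%. This was Sin3a, the scaffold that the Klf9 group recruits, which fell by 0.60 ± 0.14 (adjusted p = 0.00612) without LPS and by 0.67 ± 0.14 (adjusted p = 0.00203) with LPS.

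Genes for ubiquitin ligases that are known to mark Kruppel-like factors or other short-lived regulators for degradation were also examined. Of 5 tested, 0 rose and 1 fell with LPS, against 5.11% and 9.74% of all genes. With cordycepin alone 1 rose and 2 fell, against 8.07% and 7.73%. With cordycepin in LPS 2 rose and 0 fell, against 10.8% and 8.36%. Fbxo32 fell by 1.25 ± 0.18 (log2, adjusted p = 0.000134) with LPS, and Btrc was raised by cordycepin, by 1.45 ± 0.11 (adjusted p = 2.75e-07) without LPS and by 1.58 ± 0.11 (adjusted p = 7.58e-08) with LPS. Fbxo32 (-0.96 ± 0.18, adjusted p = 0.00115) and Fbxw7 (-0.76 ± 0.15, adjusted p = 0.0023) fell with cordycepin alone, and Wwp1 rose by 0.55 ± 0.14 (adjusted p = 0.0103) with cordycepin in LPS. The Fbxo32 signal was near background. It was well above background on 4 DMSO, 3 cordycepin, 4 LPS+DMSO and 2 LPS+cordycepin arrays. Of 14 genes of pathways known to act on Klf2, Klf9 or Klf10, 0 were called in any comparison. With LPS 0 rose and 1 fell, with cordycepin alone 1 rose and 3 fell, and with cordycepin in LPS 1 rose and 2 fell. All genes that rose and fell made up 5.11% and 9.74%, 8.07% and 7.73%, and 10.8% and 8.36% in these comparisons. Mapk7, the ERK5 kinase that acts through MEF2 on Klf2, fell with LPS by 0.47 ± 0.09 (adjusted p = 0.00194) and with cordycepin by 0.34 ± 0.09 (adjusted p = 0.015). With cordycepin alone, Mef2a fell by 0.36 ± 0.12 (adjusted p = 0.0481), and its change was -0.25 ± 0.10 (adjusted p = 0.111) without DMSO replicate 2. Mef2d rose by 0.35 ± 0.08 (adjusted p = 0.00499) with cordycepin alone. With cordycepin in LPS, Mef2a fell by 0.48 ± 0.12 (adjusted p = 0.00841) and Mef2d rose by 0.54 ± 0.08 (adjusted p = 9.77e-05). Smad3, a mediator of TGF-beta, fell by 0.76 ± 0.11 (adjusted p = 0.00015) with cordycepin alone and by 0.72 ± 0.11 (adjusted p = 0.000198) with cordycepin in LPS.

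Of 16 genes described as targets of these factors, 9 were tested. With LPS 7 rose and 1 fell, against 5.11% and 9.74% of all genes, and their median log2 change was 1.24, against -0.04 for all genes. Most of these are known LPS-induced genes, among them Ccl2 (3.79 ± 0.18, adjusted p = 7.1e-10), Ptgs2 (3.17 ± 0.17, adjusted p = 2.9e-09) and Ccl5 (1.75 ± 0.49, adjusted p = 0.0241). Ccl5 varied widely in DMSO (SD 1.41, n = 4), and without DMSO replicate 2 its change was 2.45 ± 0.23 (adjusted p = 3.85e-06). The cell cycle inhibitor Cdkn1a rose by 1.43 ± 0.14 (adjusted p = 4.09e-06). Smad7, also among the 7, had a difference of 1.24 ± 0.35 (adjusted p = 0.0231), but it entered the test only through LPS+DMSO, where it was high. It was well above background on 2 DMSO, 1 cordycepin, 4 LPS+DMSO and 2 LPS+cordycepin arrays, and without DMSO replicate 2 its adjusted p was 0.0635. The gene that fell was S1pr1, a sphingosine phosphate receptor gene that Klf2 is known to activate in lymphocytes, with -1.17 ± 0.18 (adjusted p = 0.000278).

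With cordycepin in LPS, 1 of the 9 targets rose and 6 fell, against 10.8% and 8.36% of all genes, with a median log2 change of -1.06 against 0.04. The 4 called were Ptgs2 (-1.47 ± 0.17, adjusted p = 8.65e-06), Ccl2 (-1.32 ± 0.18, adjusted p = 4.38e-05), Nos2 (-1.06 ± 0.28, adjusted p = 0.012) and Smad7 (-1.32 ± 0.35, adjusted p = 0.0126), the last of which entered the test only through the higher group. The gene that rose was Cdkn1a, by 0.54 ± 0.14 (adjusted p = 0.0134). S1pr1 fell by 0.67 ± 0.18 (adjusted p = 0.0161) with cordycepin in LPS and by 0.99 ± 0.18 (adjusted p = 0.00108) with cordycepin alone. Its LPS changes (-1.17 and, with cordycepin, -0.85) and those of Klf2 (0.42 and 0.82) had opposite signs, but neither Klf2 change passed the test on all arrays. Both Klf2 changes passed it without DMSO replicate 2, a choice of arrays made after the data were seen. With cordycepin both genes changed in the same direction. S1pr1 changed by -0.99 without LPS and -0.67 with it, and Klf2 by -1.22 and -0.81, the last not past the test. Without DMSO replicate 2, the changes with cordycepin alone were -1.05 for S1pr1 and -0.79 for Klf2. Whether Klf2 acted on S1pr1 was not tested. With cordycepin alone, 1 of the 9 rose (Cdkn1a) and 3 fell (S1pr1, Ptgs2 and Smad7), against 8.07% and 7.73% of all genes. Without DMSO replicate 2, 2 fell (S1pr1 and Smad7). Smad7 (-1.13 ± 0.35, adjusted p = 0.0367) was well above background on only 2 DMSO and 1 cordycepin arrays. It entered the test through LPS+DMSO, which is in neither group compared here. With LPS in cordycepin-treated cells 4 rose and 1 fell, against 3.62% and 4.38%, with Ccl2 the largest at 2.69 ± 0.18 (adjusted p = 6.76e-08).

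The genes most like Klf6 over the 16 arrays were Errfi1 (Pearson's r = 0.984), 4930453N24Rik (0.980) and Ccl3 (0.979). Those most like Klf9 were Ankrd34a (0.927), Hhex (0.926) and Tmem41a (0.925), and those most like Klf7 were Slc20a1 (0.958), Rela (0.955) and Ets2 (0.954). These are the highest of 11593 named genes and are given as a description, since the 16 points fall into 4 conditions on 2 slides.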

How the data were processed

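RNA of RAW264.7 cells was labelled with Cy3 and measured on Agilent 1-colour mouse arrays in 4 conditions with 4 replicates. The members and gene lists were chosen with earlier results of these data known. The scanner files deposited by the authors give an intensity per spot after background subtraction and spatial detrending by Feature Extraction, without normalization between arrays, and a version of 10.10.1.1 is named in the submitters' processing notes but 10.7.3.1 in the file headers. The authors also deposited a table of log2 values for 23730 probes, normalized between arrays by a method not given in the sources used here. It served as an alternative. Its correlation with the scanner values was 0.995 to 0.998.

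The processed intensity was log2-transformed, outlier spots were left out and spots of a probe were averaged. Arrays were scaled to the 75th percentile of 18148 probes that Feature Extraction marked as well above background everywhere, so that a shift of all mRNAs together is removed. A probe was kept if it carried this mark on every array of 1 or more conditions (21598 probes), and the brightest stood for its gene. Limma 3.58.1 (R 4.3.3) was fitted to all 16 arrays, with Benjamini-Hochberg adjustment over 15877 genes, without a block. The number of arrays limits the precision. The fit was tested on simulated data.

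Probes were named through RefSeq by accession (27656), symbol (3401) or synonym (321). The accession gave the same symbol for 10 of the 12 member probes. All members and their probes are named in the text, list genes where they were past both thresholds, up to 6 per list, or in a count of 5 or fewer, and the 3 genes most like each of the 3 members with the largest LPS change. A gene of the target list is not reported here, and its counts leave it out.

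A replicate number marks a culture day, as the labels state, and its 4 wells shared a plate. Same-numbered arrays correlated in their deviations from group means with a mean r of 0.20 (-0.06 to 0.44), arrays of another number on the same slide with 0.18 and arrays of different slides with -0.19. Probe coordinates are those of the files (mm9). The annotation of that build was not used here, so exons are not given.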

Additional observations from a re-analysis of the deposited data

Results flagged for a closer look

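Within a condition, the array farthest from the other 3 was examined for each member probe by the ratio of its gap to the whole range. Of 48 such groups 4 were past the critical value, and chance alone gives about 1 in 20, or 2.4. Klf2 in DMSO replicate 2 had a log2 signal of 11.09 against 9.26 to 9.51 on the other 3 arrays. Klf9 in the same array was at 9.72, below the other DMSO arrays. Klf7 in LPS+cordycepin replicate 4 was at 12.57, above the other 3, and Klf13 (NM_021366) in cordycepin replicate 3 was at 10.68, above the other 3.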

How the results depend on the processing

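The counts of members called (adjusted p under 0.05 and at least 2-fold) are 1, 1, 1, 0 and 0 for LPS+DMSO against DMSO, LPS+cordycepin against cordycepin, cordycepin against DMSO, LPS+cordycepin against LPS+DMSO and the difference between the LPS changes. None of the values of a single member that passed the test changed sign under any alternative run, although 73 of 1683 did where neither value passed. Leaving out each array or culture day in turn (20 fits) gave 1 to 1, 0 to 1, 0 to 2, 0 to 0 and 0 to 0. The Klf6 call with cordycepin was lost without replicate 4 and without cordycepin replicate 3, LPS+cordycepin replicate 2 or LPS+cordycepin replicate 4. The Klf2 call was lost without DMSO replicate 2 (-0.79) or without all of replicate 2 (-0.83), and Klf4 was called too in the 4 fits without DMSO replicate 1, 3 or 4 or cordycepin replicate 1.

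For cordycepin against DMSO, quantile normalization and the 75th percentile over all probes each called 2 (Klf2 and Klf4), and 0 were called within slide 1, within slide 2, with only the groups compared (Klf2 adjusted p = 0.0575) and by the methods' t-test after Benjamini-Hochberg adjustment (0.15). For LPS+cordycepin against cordycepin, 0 were called with normexp background correction (Klf6 at 0.97), in the authors' value table (0.98) and within slide 1 (0.97). Scaled to the spiked-in controls, 0 were called in each of the first 3 comparisons and 0 members passed the test in any. The medians of all genes then shifted to -0.14, -0.36, 0.10 and -0.12, and relative to them Klf6 stood at 1.18 and 1.07 with LPS and Klf2 at -1.25 with cordycepin. The methods' t-test at an unadjusted p under 0.05 and 2-fold gave 1, 1, 1 and 0 for the first 4 comparisons. The remaining 176 counts over all alternatives stayed within 1.5 times of the main count. Without a fold minimum the counts were 3, 2, 2, 2 and 0, and at 1.5-fold they were 2 for LPS+DMSO against DMSO and 2 for cordycepin against DMSO. The causes of these differences were not tested.

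The replicate block left the counts of calls at 1, 1, 1, 0 and 0 and, without a fold minimum, gave 3, 3, 3, 3 and 0. Without DMSO replicate 2 and a fold minimum they were 5, 4, 3, 5 and 0. Both of these combinations were chosen after seeing the data. Signal over background limits Klf11 and the third Klf13 probe, which were not measurable on most arrays.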
